A study of Mus musculus with 12 samples.

Results

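Cytochrome P450 genes outside the Cyp2a, Cyp2d and vitamin D groups were followed in the kidney of mice given cannabidiol (CBD). The members were the protein-coding genes whose GENCODE mouse symbol has the form Cyp, family number, subfamily letter and gene number. Of 99 such symbols, 18 were left out by name (Cyp2a4, Cyp2a5, all Cyp2d genes, Cyp1a1, Cyp1b1, Cyp4a10, Cyp4a14, Cyp24a1, Cyp27b1 and Cyp2r1), and 46 did not reach 10 counts in 4 or more of the 12 libraries. The remaining 35 genes, of 57180 genes in the count files, are described here. The mice were C57BL/6J males, 60 days old at the start, and received 1 intraperitoneal injection a day for 28 days. The control group was given saline with Tween 80 alone, and the other groups were given the same vehicle with 10 or 20 mg CBD/kg b.w. (body weight). Each group held 4 mice, and each library came from 1 kidney sample of 1 mouse, scraped from the tissue without a stated region of the organ, so the mix of cortex and medulla is not known.

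P450 enzymes are monooxygenases that hold a haem group and use oxygen and electrons, passed on from P450 reductase or, in mitochondria, from ferredoxin, to hydroxylate or epoxidize fats, steroids and foreign compounds. In kidney, enzymes of the Cyp4 family hydroxylate fatty acids at the end of the chain and make 20-HETE from arachidonic acid, which constricts vessels and acts on tubular salt transport. Enzymes of the Cyp2c and Cyp2j groups turn arachidonic acid into epoxides (EETs), which relax vessels. Several kidney P450 genes of the mouse depend on androgens and are higher in males, and several others respond to the drug-sensing receptors CAR and PXR.

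What the enzymes share is the stretch around the cysteine that binds the haem iron. Codons for Phe, Gly, Arg, Cys and Gly at places 1, 4, 6, 8 and 10 of a run of 10 codons were searched in the coding sequence of each gene's canonical transcript (GENCODE vM39, bases of GRCm39, coding strand). The run was found in 31 of the 35 members and in 93 of 21770 protein-coding genes (0.427%), of which 91 were Cyp genes. It was not found in Cyp20a1, Cyp2s1, Cyp39a1 and Cyp7b1. The run lay across an exon junction in 27 of the 31 members, so most of the positions below span an intron. These genes were chosen because they led the family by level or by difference between groups, and the pair Cyp4a12a and Cyp4a12b because it shows how close neighbouring copies are. Capitals mark the cysteine codon.
Cyp2e1: ttttctgcaggaaagcgcgtgTGTgttgga (chr7:140353675-140354490, plus strand)
Cyp2j5: ttctcaatgggaaaaagagctTGTcttgga (chr4:96517864-96518957, minus strand)
Cyp2j9: ttctcaatgggaaaacgtgctTGTcttgga (chr4:96457120-96460181, minus strand)
Cyp2j8: ttctcagtgggaaagagaggtTGCcctgga (chr4:96332989-96335466, minus strand)
Cyp2b10: ttctcaacaggaaagcgcattTGTcttggt (chr7:25616845-25625512, plus strand)
Cyp26b1: tttggcggtggcgtgcggaccTGCctgggc (chr6:84551459-84551488, minus strand)
Cyp4b1: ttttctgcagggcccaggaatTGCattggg (chr4:115482413-115482859, minus strand)
Cyp4a31: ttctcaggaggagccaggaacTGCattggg (chr4:115432147-115435145, plus strand)
Cyp4a12a: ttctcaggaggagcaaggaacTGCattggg (chr4:115186183-115189043, plus strand)
Cyp4a12b: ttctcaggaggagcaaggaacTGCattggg (chr4:115292437-115295266, plus strand)

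Of the 31 members, 20 used TGC and 11 used TGT for the cysteine. Pairs of Cyp2j genes matched at 23 to 29 of the 30 bases, and Cyp2j5 and Cyp4b1 at 15. The 30 bases were the same in Cyp4a12a and Cyp4a12b, in Cyp4a31 and Cyp4a32, and in Cyp2c68 and Cyp2c69. Over the whole coding sequence these pairs were identical at 98.5%, 96.5% and 96.5% of aligned bases. Windows of 150 bases, the length of 1 read, that also occur in transcripts of another Cyp gene made up 25.6% of the Cyp4a12a transcript, 25.9% of Cyp4a12b, 22.5% of Cyp2c69, 8.53% of Cyp2c68, 7.36% of Cyp4a32, 4.15% of Cyp4a31 and 2.78% of Cyp4f16. The authors' counting could lose or split such reads, so the values of these 7 genes are uncertain in part. No shared window was found in the other 28 members.

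Many members lie side by side. On chromosome 4, the 7 Cyp2j members occupy chr4:95915771-96552451 and the 4 Cyp4a members and Cyp4b1 occupy chr4:115156243-115504999. The 5 Cyp4f members lie at chr17:32725024-33166434, and the 3 Cyp2c members lie between 39676779 and 44017653 on chromosome 19. The strand setting of the counting is not stated, which bears on members whose exons overlap a gene on the opposite strand. Cyp2t4 shares 98.2% of its exonic bases with Egln2, Cyp27a1 shares 32.8% with Prkag3, and Cyp4a32 shares 30.2% with Cyp4b1, so reads of these genes may not be told apart.

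Counts on genes ranged from 15417867 to 23532088 per library, and no pair of libraries held the same values. Levels are TMM-normalized CPM (counts scaled to the size of each library), and levels per length are these CPM per kilobase of exon (RPKM). Mitochondrial genes took 3.53% to 5.77% of the counts in 4 libraries (control replicate 2, replicates 1 and 3 at 10 mg and replicate 3 at 20 mg) and 12.8% to 23.4% in the other 8. All 8 markers of the proximal tubule, the segment that reabsorbs most of the filtrate, were expressed, with summed levels of 10057 to 13234 CPM. The sum of 6 adipocyte markers ranged from 98.0 to 279 CPM in the control group, from 68.3 to 143 CPM at 10 mg and from 68.5 to 117 CPM at 20 mg. The highest sums were in the control group, but the ranges overlapped, and none of the markers was at 0 in all libraries. The part of these markers in the values below was not tested. In these bulk samples, fewer cells of a type and less RNA per cell cannot be told apart.

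The 35 members took 69.9% of all counts on the 99 P450 symbols, and the genes under the count rule took 0.0390%. Members' mean levels per length ran from 0.0816 to 374 RPKM, as the plot of levels per kilobase shows. Cyp2e1, which oxidizes ethanol and small solvents, led with 374 ± 68.4 RPKM (SD, n = 12). Cyp2j5, an arachidonic acid epoxygenase of the proximal tubule, followed with 328 ± 32.99 RPKM, Cyp4b1, a hydroxylase of fatty acids and foreign amines, with 317 ± 46.9 RPKM, and Cyp4a31 with 255 ± 94.9 RPKM. These 4 genes could not be ranked against their neighbours, since the ranges of each consecutive pair overlapped, and the order of the first 2 changed when the longest transcript was taken as the length. Cyp2j11 came next with 69.7 ± 12.8 RPKM, below Cyp4a31 in every library and with ranges apart. Below it, the levels fell through Cyp2j13 (39.7 RPKM), Cyp4a12a (28.8 RPKM), Cyp27a1 (13.8 RPKM) and Cyp7b1 (9.44 RPKM) to Cyp3a11, the lowest. The only other neighbouring pair with ranges apart was Cyp4f16 over Cyp46a1 (0.974 against 0.463 RPKM).

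**Figure D1:**
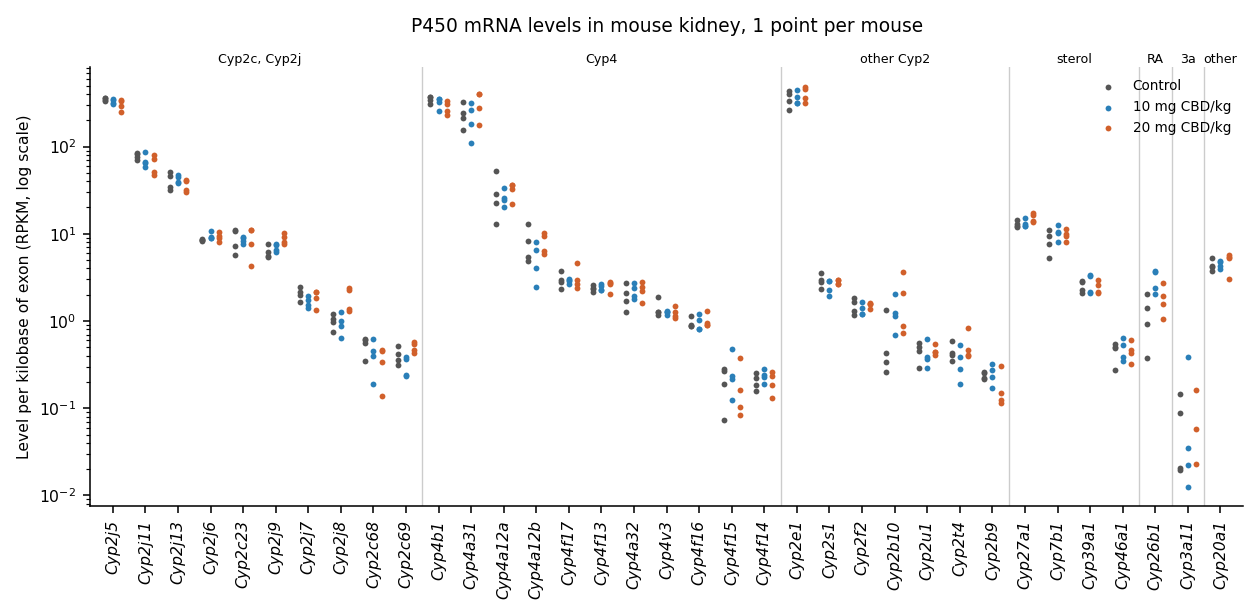
Level per kilobase of exon (RPKM, log scale) of the 35 P450 members in each of the 12 mice, ordered by role and level; points are mice, coloured by group, and the 1 library without Cyp3a11 counts is not drawn. Cyp2e1, Cyp2j5, Cyp4b1 and Cyp4a31 stand above all others in each group, and the 3 groups overlap for nearly every gene.

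By role, 11 Cyp4 members took 50.5% of the members' counts, 10 Cyp2c and Cyp2j members 29.7%, and 7 other Cyp2 members 16.8%, while 4 sterol hydroxylases took 2.63%. Cyp4b1, Cyp2j5 and Cyp2e1 together held 69.0% to 82.9% of the members' counts in a library. With Cyp4a31 and Cyp2j13 they held 89.5% to 91.4%. The summed level of the members was 6557 ± 461 CPM in the control group, 6256 ± 492 CPM at 10 mg and 6174 ± 523 CPM at 20 mg (SD, n = 4 in each), which differ by less than the spread between mice on that TMM scale. As a share of all counts, with no such scaling, the members took 0.652% to 0.678% in the control mice, 0.588% to 0.684% at 10 mg and 0.514% to 0.647% at 20 mg. On that scale every mouse given 20 mg lay below every control mouse. Those counts include mitochondrial transcripts, whose share was highest in replicates 1 and 2 at 20 mg (20.6% and 23.4%). In replicate 3 at 20 mg that share was 5.54%, and the members took 0.599%, also below every control mouse. The part of the mitochondrial share in this order was not tested. Over the counts of nuclear genes alone, a denominator chosen after seeing the data, the groups overlapped, at 0.691% to 0.822% in the control mice, 0.650% to 0.807% at 10 mg and 0.634% to 0.785% at 20 mg. Of 9 Cyp3a genes only Cyp3a11 reached the count rule, and of 6 steroid hormone synthesis genes (Cyp11a1, Cyp17a1 and others) none did. Cyp7a1, the rate-limiting enzyme of bile acid synthesis in liver, had 5 counts in the 12 libraries together.

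None of the 33 members tested was called at an adjusted p-value under 0.1 in any comparison with edgeR's quasi-likelihood test (Benjamini-Hochberg over 17163 genes). Cyp3a11 and Cyp2b9 were too low to be tested. In all genes, 0.0291% were called at 10 mg against the control group, 0.303% at 20 mg, 0% between the doses and 0.140% for the mean of both doses. At an unadjusted p-value under 0.05 there was 1 member at 10 mg, against a background of 5.67% of all genes. There were 3 members at 20 mg (background 8.45%), 3 between the doses (background 6.31%) and 3 for the mean of both doses (background 7.04%), or 9.09% of the 33 members each time, and all of these were higher in the first group named. DESeq2 called 1 member at 20 mg and none in the other comparisons, and limma-voom called none. Of all 17163 genes, DESeq2 called 40, 182, 12 and 136 in the same order of comparisons and limma-voom 5, 48, 0 and 25. At an unadjusted p-value under 0.05, DESeq2 gave 2, 4, 2 and 3 members in that order and limma-voom gave 2, 4, 3 and 3. Of all genes, DESeq2 gave 1055, 1544, 1164 and 1303 under 0.05 and limma-voom 955, 1405, 1041 and 1159. The smallest adjusted p-values of a member with edgeR were 0.796 at 10 mg, 0.304 at 20 mg, 0.758 between the doses and 0.583 for both doses.

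The members' median log2 fold change was -0.02 at 10 mg and 0.09 at 20 mg, where all genes tested had medians of 0.01 and 0.01. At 10 mg, 16 members had a positive and 17 a negative value, and at 20 mg 21 and 12. Both doses were compared with the same 4 control mice, so their values are not independent. Standard errors ranged from 0.11 to 0.57 at 10 mg on the log2 scale, with a median of 0.20, the same to 2 decimals as the median of all genes. The biological coefficient of variation ranged from 0.125 (Cyp2j6) to 0.518 (Cyp2b10), with a median of 0.192 against 0.195 for all genes.

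**Figure D2:**
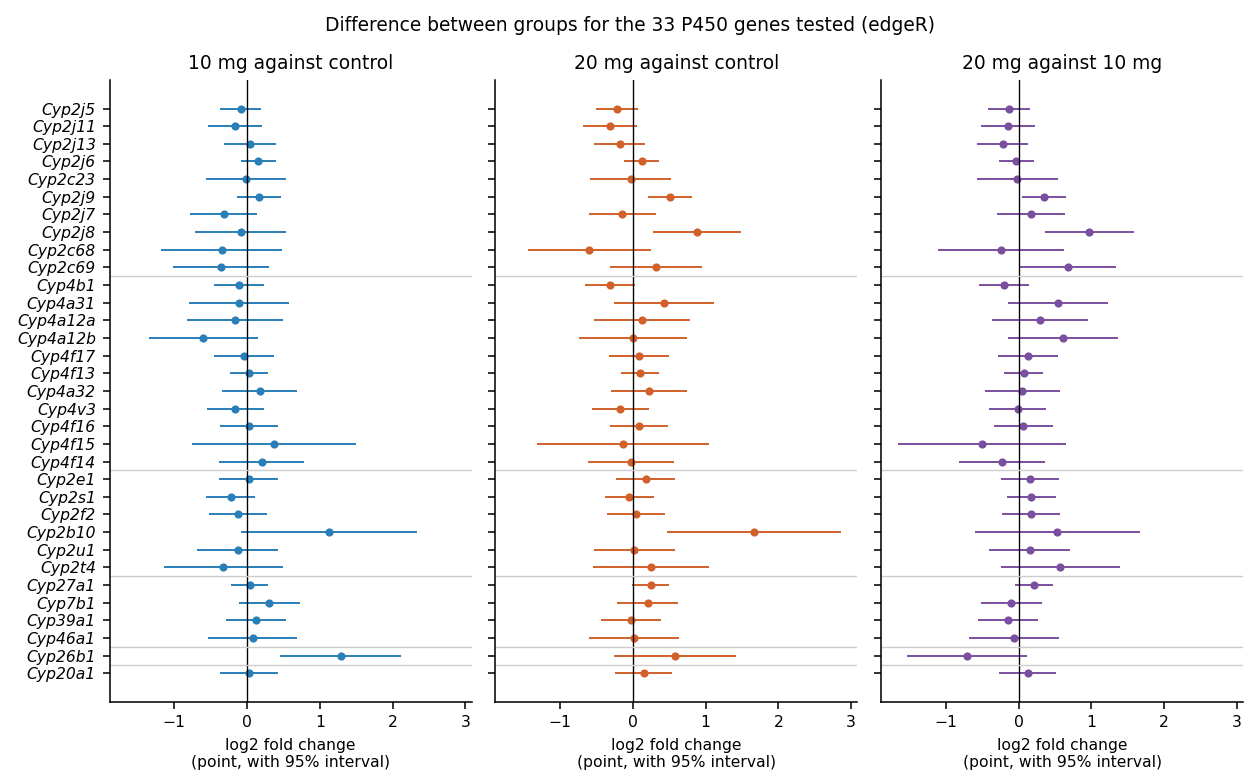
Log2 fold change (point) with its 95% interval (line) for the 33 members tested, at 10 mg against control, 20 mg against control and 20 mg against 10 mg, from 1 edgeR model of the 12 libraries. Intervals that leave 0 at 20 mg against control belong to Cyp2j9, Cyp2j8 and Cyp2b10, and none passed the adjusted threshold.

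Among the epoxygenases, Cyp2j9, which is also known from brain, had the smallest p-value of all members at 20 mg. Its levels were 26.8, 30.8, 37.8 and 27.6 CPM in the control mice, 30.5, 36.9, 37.9 and 32.3 CPM at 10 mg and 46.2, 40.1, 51.2 and 37.7 CPM at 20 mg. Of the mice given 20 mg, 3 lay above every control mouse, and the fourth lay just under the highest control mouse. The log2 fold change was 0.51 ± 0.14 (SE; 95% interval 0.21 to 0.81), or 1.42-fold, with an unadjusted p = 0.00247 and an adjusted p = 0.304 in edgeR. The exact two-sided permutation test gave p = 0.0571, where 0.0286 is the smallest that 4 mice against 4 allow. At 10 mg the value was 0.16 ± 0.14, and between the doses it was 0.35 ± 0.14 (edgeR, unadjusted p = 0.0253, adjusted p = 0.764). DESeq2 called Cyp2j9 at 20 mg (adjusted p = 0.0956), as did edgeR with the mitochondrial share as a covariate (adjusted p = 0.0392). Of all 17163 genes, DESeq2 called 182 at 20 mg and the covariate fit 1386, against 52 in the main edgeR fit. The log2 fold change of Cyp2j9 stayed between 0.43 and 0.62 in all 22 alternatives, over which the adjusted p ranged from 0.0392 to 0.639.

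Cyp2j8, of the same gene cluster, was expressed far lower, with 22 to 62 counts per library. Its levels were 1.13, 1.81, 1.61 and 1.47 CPM in the control mice, 0.972, 1.91, 1.31 and 1.53 CPM at 10 mg, and 3.63, 2.10, 3.42 and 1.98 CPM at 20 mg. All 4 mice given 20 mg lay above all other mice, while the mice given 10 mg overlapped the control mice. Cyp2j8 was the only member whose groups did not overlap at 20 mg against control, where 5.30% of all genes had groups that did not overlap. The log2 fold change was 0.88 ± 0.28 (95% interval 0.28 to 1.49; exact permutation p = 0.0286) at 20 mg, with an unadjusted p = 0.00709 and an adjusted p = 0.390 in edgeR. Over the 22 alternatives the adjusted p ranged from 0.0966 to 0.737. The lowest came from edgeR with the mitochondrial covariate, which called 1386 of all 17163 genes. Against 10 mg the difference was 0.97 ± 0.29 (edgeR, unadjusted p = 0.00410, adjusted p = 0.758). Cyp2c69 also lay higher in all 4 mice at 20 mg than at 10 mg, by 0.68 ± 0.31 on the log2 scale (edgeR, unadjusted p = 0.0431, adjusted p = 0.782), from 7 to 24 counts per library. These were the 2 members without overlap between the doses, where the background was 3.10%.

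The other 7 members of the group did not pass the unadjusted threshold in any comparison of the main edgeR fit. Cyp2j5, the most abundant, had 1609, 1472, 1596 and 1520 CPM in the control mice, 1510, 1554, 1398 and 1368 CPM at 10 mg and 1454, 1097, 1277 and 1504 CPM at 20 mg. The lowest 2 values belonged to mice given 20 mg, but the groups overlapped, and the log2 fold change at 20 mg was -0.22 ± 0.13 (95% interval -0.50 to 0.07; exact permutation p = 0.0571). Cyp2j11 had a value of -0.31 ± 0.17 at 20 mg and Cyp2j13 one of -0.18 ± 0.17, so the 3 most abundant Cyp2j genes had negative values at 20 mg where Cyp2j9 and Cyp2j8 had positive ones. Cyp2j6 varied least of all members, from 32.6 to 43.9 CPM, and was the single member whose groups did not overlap at 10 mg against control (background 3.19%), with 33.8 to 35.1 CPM in control mice and 36.5 to 43.9 CPM in mice given 10 mg. The size of that difference was small, 0.15 ± 0.11 on the log2 scale (edgeR, adjusted p = 0.897; exact permutation p = 0.0286). Cyp2j7 and Cyp2c68 had values of -0.14 ± 0.22 and -0.60 ± 0.40 at 20 mg. Cyp2c23, the main arachidonic acid epoxygenase of the rodent kidney, had 21.3 ± 6.42, 21.1 ± 1.90 and 20.8 ± 7.87 CPM in the control group and at 10 and 20 mg (SD, n = 4), and its log2 fold change at 20 mg was -0.03 ± 0.26.

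**Figure D3:**
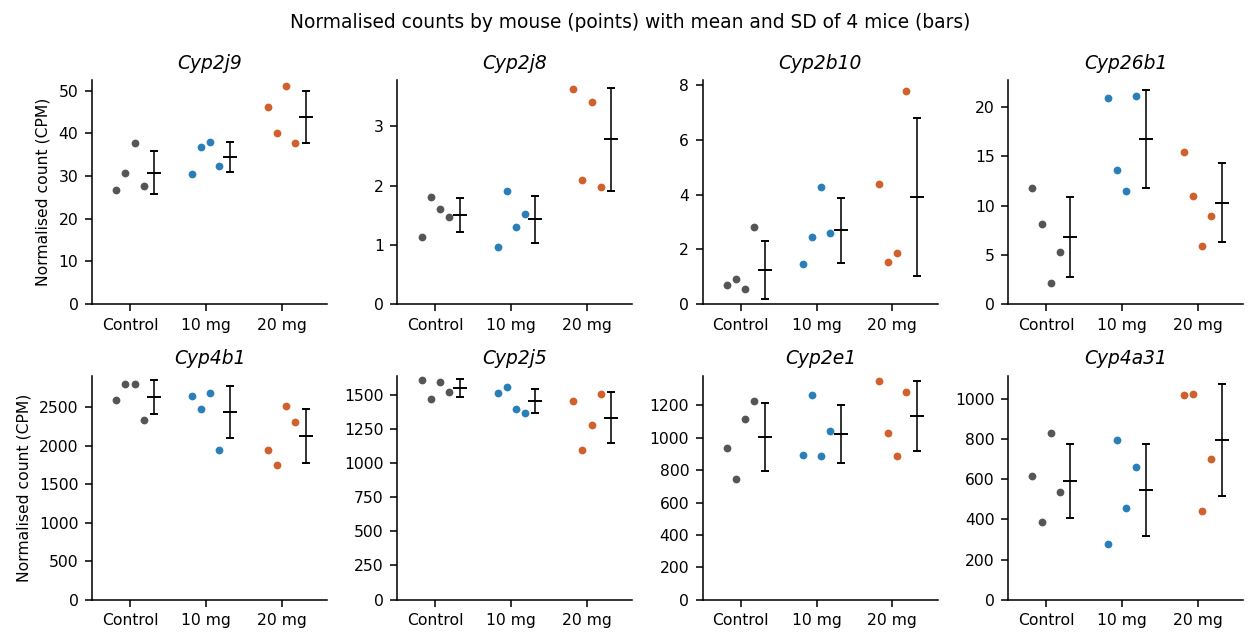
Normalized counts (CPM, linear axes from 0) of 8 members in each mouse, with bars for the mean and SD of the 4 mice of a group. Cyp2j9 and Cyp2j8 sit highest at 20 mg, Cyp26b1 highest at 10 mg, Cyp2b10 spreads widely at 20 mg, and the groups overlap for Cyp4b1, Cyp2j5, Cyp2e1 and Cyp4a31.

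None of the 11 fatty acid hydroxylases of the Cyp4 family passed the unadjusted threshold of edgeR in any comparison with the filter on low counts. Cyp4b1 had 2587, 2803, 2800 and 2334 CPM in the control mice, 2647, 2475, 2680 and 1942 CPM at 10 mg and 1941, 1742, 2515 and 2303 CPM at 20 mg. Of the 4 mice given 20 mg, 3 lay below every control mouse. The log2 fold change at 20 mg was -0.31 ± 0.16 (95% interval -0.65 to 0.03; edgeR, unadjusted p = 0.0742, adjusted p = 0.643; exact permutation p = 0.0571). That fold change kept its sign in all 22 alternatives, from -0.40 to -0.23.

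Cyp4a31 belongs to the Cyp4a group, whose members are known targets of the fatty acid receptor PPAR alpha. Its levels were 615, 388, 832 and 537 CPM in the control mice, 278, 798, 455 and 663 CPM at 10 mg and 1019, 1026, 443 and 699 CPM at 20 mg. The 3 groups overlapped widely, and the log2 fold change was -0.11 ± 0.32 at 10 mg and 0.43 ± 0.32 at 20 mg. Cyp4a12a, the androgen-dependent gene whose product makes 20-HETE, ranged from 32.9 to 131 CPM over the control mice alone, which held both the lowest and the highest of the 12 values. Its log2 fold change was 0.13 ± 0.31 at 20 mg (95% interval -0.53 to 0.78), and that of its near-identical copy Cyp4a12b was -0.60 ± 0.35 at 10 mg and 0.01 ± 0.35 at 20 mg. With no filter on low counts, edgeR called Cyp4a12b at 10 mg (-0.63, adjusted p = 0.0506) and between the doses (0.62, adjusted p = 0.0758). That fit called 331 and 256 of 40012 genes in these comparisons. For both copies the shared sequence leaves the split of reads uncertain. The 5 Cyp4f members, Cyp4v3 and Cyp4a32 had values between -0.17 and 0.22 at 20 mg.

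Some Cyp4 and Cyp2 members lay apart in the libraries of low mitochondrial share. Cyp4a31 lay at 278 to 455 CPM in the 4 libraries of low share and at 537 to 1026 CPM in the other 8. Cyp2e1 lay at 747 to 892 CPM in the low libraries and at 936 to 1352 CPM in the others. For both, all 4 low libraries lay below all 8 others, as did 6.65% of all genes, and for Cyp4f16 all 4 lay above (6.54 to 8.28 against 5.17 to 6.05 CPM), as did 6.29% of all genes. So 2 of 33 members lay below and 1 above, shares no larger than in all genes. The highest shares, 20.6% and 23.4%, belonged to mice given 20 mg (replicates 1 and 2), and these mice also had the highest Cyp4a31 values. With the share as a covariate, the Cyp4a31 value at 20 mg was 0.12 in place of 0.43, and without the 4 low libraries it was 0.47, neither of them called. The part of the mitochondrial share in these values was not tested beyond this.

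**Figure D4:**
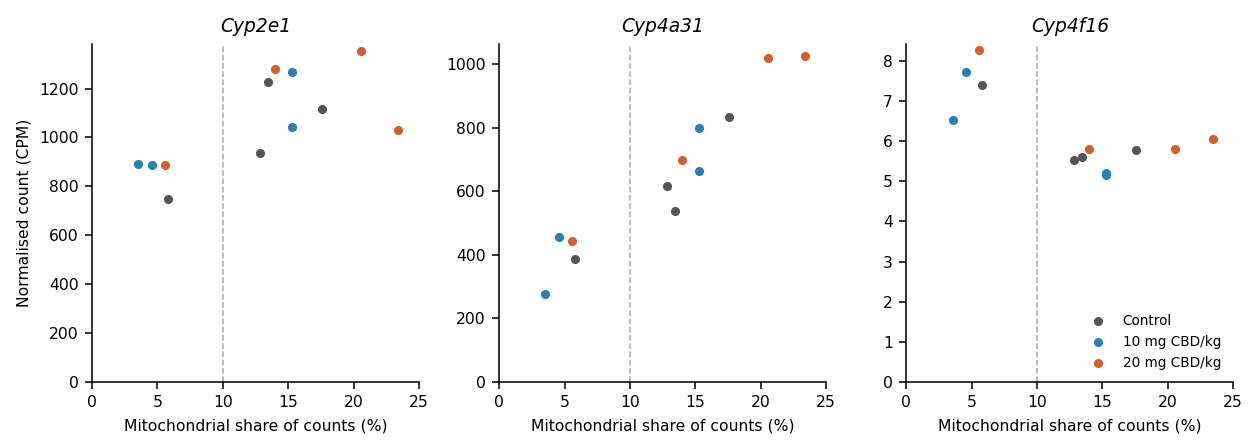
Normalized counts (CPM, from 0) of Cyp2e1, Cyp4a31 and Cyp4f16 against the percentage of counts on mitochondrial genes, 1 point per mouse, coloured by group, with a dashed line at 10%. The 4 libraries left of the line, from all 3 groups, are the lowest for Cyp2e1 and Cyp4a31 and the highest for Cyp4f16.

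Among the other Cyp2 enzymes, Cyp2b10, the classic target of CAR in liver, had the largest fold change of the 33 members tested at 20 mg and also, among them, the largest biological coefficient of variation, edgeR's estimate of the relative spread between mice beyond counting error (0.518). Its levels were 0.714, 0.906, 0.554 and 2.83 CPM in the control mice, 1.46, 2.44, 4.29 and 2.58 CPM at 10 mg and 4.39, 1.56, 1.86 and 7.79 CPM at 20 mg, from 11 to 138 counts. All 8 treated mice lay above the lowest 3 control mice, and the fourth control mouse lay within both treated groups. The log2 fold change was 1.13 ± 0.57 at 10 mg (95% interval -0.08 to 2.34) and 1.66 ± 0.56 at 20 mg (0.47 to 2.86), with unadjusted p = 0.0643 and 0.00971 and adjusted p = 0.870 and 0.419 in edgeR. For the mean of both doses it was 1.40 ± 0.51 (edgeR, unadjusted p = 0.0150, adjusted p = 0.583). Single mice weighed heavily, since the value at 20 mg was 2.42 without control replicate 4 and 1.08 when the fourth mouse given 20 mg was left out. Over the 22 alternatives at 20 mg, the adjusted p ranged from 1.42e-05 with no filter on low counts to 0.761, and it passed the threshold in 2, the other being the mitochondrial covariate (adjusted p = 0.0883). Of all genes, the fit with no filter called 416 of 40012 at 20 mg and the covariate fit 1386 of 17163.

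Cyp2e1 had 936, 747, 1117 and 1227 CPM in the control mice, 892, 1267, 886 and 1041 CPM at 10 mg and 1352, 1028, 889 and 1281 CPM at 20 mg. The groups overlapped, and the log2 fold change was 0.02 ± 0.19 at 10 mg and 0.18 ± 0.19 at 20 mg (95% interval -0.22 to 0.58). Cyp2s1, an enzyme of epithelia, had values of -0.22 ± 0.16 at 10 mg and -0.04 ± 0.16 at 20 mg. Cyp2t4, whose exons nearly all face Egln2, had values of -0.32 ± 0.39 and 0.25 ± 0.37.

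Cyp26b1, which breaks down retinoic acid, was the 1 member under the unadjusted threshold at 10 mg. Its levels were 11.8, 8.11, 2.17 and 5.33 CPM in the control mice, 20.9, 13.6, 11.5 and 21.1 CPM at 10 mg and 15.4, 10.96, 5.94 and 8.92 CPM at 20 mg. At 10 mg, 3 mice lay above all control mice and the fourth just under the highest control mouse, while the mice given 20 mg overlapped both other groups. The log2 fold change was 1.29 ± 0.39 at 10 mg (95% interval 0.45 to 2.12; edgeR, unadjusted p = 0.00498, adjusted p = 0.796; exact permutation p = 0.0571) and 0.58 ± 0.39 at 20 mg. Between the doses it was -0.70 ± 0.39 (edgeR, unadjusted p = 0.0883, adjusted p = 0.812), so the order of the doses was not separated, and for the mean of both doses it was 0.93 ± 0.35 (edgeR, unadjusted p = 0.0174, adjusted p = 0.597). With 1 library left out, the value at 20 mg ranged from 0.29 to 0.98. The value at 10 mg kept its sign in all 22 alternatives, from 0.99 without control replicate 3 to 1.69 without control replicate 1. It was called only with no filter on low counts (adjusted p = 4.77e-08), a fit that called 331 of 40012 genes at 10 mg. The highest adjusted p was 0.9999.

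None of the 4 sterol hydroxylases passed the unadjusted threshold in any comparison of the main edgeR fit. Cyp27a1, the mitochondrial 27-hydroxylase of cholesterol, had 41.2, 40.1, 42.8 and 47.2 CPM in the control mice, 40.6, 40.8, 50.5 and 43.5 CPM at 10 mg and 46.2, 45.0, 55.0 and 57.1 CPM at 20 mg. Of the mice given 20 mg, 2 lay above all control mice. The log2 fold change at 20 mg was 0.25 ± 0.12 (95% interval -0.01 to 0.50; edgeR, unadjusted p = 0.0565, adjusted p = 0.607). Cyp7b1, which hydroxylates oxysterols, had 98.5 ± 29.1 CPM in the control group, 122 ± 21.2 CPM at 10 mg and 113 ± 15.6 CPM at 20 mg (SD, n = 4), with log2 fold changes of 0.31 ± 0.20 and 0.20 ± 0.20. Cyp20a1, whose substrate is not known, had 0.15 ± 0.19 at 20 mg.

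No member had all treated mice on 1 side of all control mice at both doses, and none did for the mean of both doses, where 0.862% of all genes had groups that did not overlap. For the 22 members picked by the rule for named genes, 88 log2 fold changes were computed over the 4 comparisons, and 59 kept their sign in every alternative.

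Genes that serve the P450 enzymes were counted from fixed lists. Of the 8 genes of haem synthesis, 1 was called, Alas1 (5-aminolevulinate synthase, the rate-limiting step of the pathway). It had 72.1, 55.8, 66.5 and 69.5 CPM in the control mice, 109, 75.3, 109 and 91.9 CPM at 10 mg and 120, 101, 97.8 and 117 CPM at 20 mg. Every treated mouse had a higher value than every control mouse, and 0.862% of all genes had treated and control mice that did not overlap. Alas1 rose at 20 mg by 0.72 ± 0.14 on the log2 scale (edgeR, adjusted p = 0.0567) and for the mean of both doses by 0.63 ± 0.12 (adjusted p = 0.0855), and it had 0.54 ± 0.14 at 10 mg (adjusted p = 0.679). Of all genes, edgeR called 0.303% at 20 mg and 0.140% for the mean of both doses. At 20 mg Alas1 was called in 15 of 22 alternatives, with adjusted p from 0.000682 to 0.205. Among the alternatives, DESeq2 called 182 and the mitochondrial covariate fit 1386 of all 17163 genes at 20 mg. The fit with no filter on low counts called 416 of 40012. The call of Alas1 at 20 mg was lost when any 1 control mouse or replicate 1, 2 or 4 of the group treated with 20 mg was left out (log2 fold change 0.65 to 0.77 over the 22 alternatives). For the mean of both doses Alas1 was called in 11 of 21 alternatives, with log2 fold changes of 0.48 to 0.68 and adjusted p from 0.000742 to 0.275. Of the 12 fits that left out 1 mouse, 2 kept that call, those without replicate 2 at 10 mg and without replicate 3 at 20 mg. At 10 mg, 1 of 22 alternatives called Alas1, which was DESeq2 (adjusted p = 0.0996), where it called 40 of 17163 genes. Over these alternatives its log2 fold change at 10 mg ranged from 0.27 to 0.64. The other 7 genes of the list were not called with edgeR, DESeq2 or limma-voom. Of these 7, Uros (uroporphyrinogen III synthase) was under 0.05 unadjusted, with values opposite to those of Alas1. Its log2 fold change was -0.39 ± 0.13 at 10 mg (edgeR, unadjusted p = 0.00837, adjusted p = 0.812), -0.37 ± 0.13 at 20 mg (0.0117 and 0.438) and -0.38 ± 0.11 for the mean of both doses (0.00349 and 0.419).

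None of 8 electron donor genes tested, including Por (P450 reductase), was called in any comparison with edgeR, with 1 at an unadjusted p-value under 0.05 at 20 mg and 1 for the mean of both doses. None of 2 epoxide hydrolase genes tested, which turn EETs into diols, was called, and none was under 0.05 unadjusted. None of 15 receptors and factors that regulate P450 genes, among them PXR and PPAR alpha, was called, with 1 under 0.05 unadjusted at either dose and 2 for the mean of both doses. None of 6 androgen-dependent kidney genes outside the family was called, with 2 under 0.05 unadjusted at 10 mg, 1 at 20 mg and 1 between the doses. Of all genes in edgeR, 5.67% were under 0.05 unadjusted at 10 mg, 8.45% at 20 mg, 6.31% between the doses and 7.04% for the mean of both doses. DESeq2 and limma-voom called none of these 4 lists in any comparison either, with at most 2 genes of a list under 0.05 unadjusted. CAR (Nr1i3) was too low to be tested. Of 8 proximal tubule markers, 1 was called at 20 mg, where 0.303% of all genes were called. It was the glucose transporter Slc5a2, which fell by 0.61 on the log2 scale (SE 0.12, adjusted p = 0.0820 in edgeR). The median of the 8 was -0.24 at 20 mg. DESeq2 called 2 of the 8 at 20 mg, Slc5a2 and the endocytic receptor Lrp2, and Slc5a2 also for the mean of both doses, while limma-voom called Slc5a2 at 20 mg alone. The call of Slc5a2 at 20 mg was made in 13 of 22 alternatives (adjusted p from 0.000638 to 0.273) and was lost when any 1 mouse of the control group or of the group treated with 20 mg was left out (log2 fold change -0.67 to -0.56 over the alternatives). A separate list of 4 markers of the straight segment of the proximal tubule did not fall with it. Their median was 0.24 at 10 mg (4 of 4 higher) and 0.07 at 20 mg (3 of 4 higher). Between the doses it was -0.33 (0 of 4 higher), and edgeR called none of them. All 6 adipocyte markers had negative values at 20 mg with a median of -3.09 and unadjusted p-values under 0.05, and edgeR and limma-voom called none of them, while DESeq2 called 2.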

How the data were processed

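Poly(A) RNA of 12 mouse kidneys was sequenced as paired reads with the CORALL kit, 1 library per mouse. Per the labels and the methods, the authors used FastQC 0.11.9 for quality control, Flexbar for trimming, STAR 2.7.5c for mapping to GRCm39 and HTSeq 1.99.2 for counting; the annotation release, strand setting and use of molecular identifiers are not given in the sources used here. The deposited files hold whole counts per Ensembl gene, without normalization. The counting tool's summary lines were left out. Identifiers were matched to GENCODE vM39 (99.0% of identifiers, 99.95% of counts), and sequences were read from GRCm39.

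Groups were taken from the sample titles. Genes passing filterByExpr (17163) were fitted in edgeR 4.0.16 (R 4.3.3, TMM, quasi-likelihood, 1 mean per group, 12 libraries), and p-values were adjusted by Benjamini-Hochberg over all of them, with a threshold of 0.1. SE values of log2 fold changes were derived from the F statistic. Single genes were also compared by exact two-sided permutation tests of mean log2 CPM (prior count 2; 70 arrangements for 4 against 4). All p-values weigh a difference between groups against the spread between mice. The main edgeR fit was tested on simulated data, and the other tests and steps were not.

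Named members were those called in a comparison, the 8 with the smallest p-value in each, the 12 with the highest level per kilobase, those separated from the control mice at both doses, and the highest of each role group. Members and lists were chosen with earlier results of these data known. Alternatives were RLE size factors, limma-voom (limma 3.58.1), DESeq2 1.42.0, a fit of all genes without the low-count filter, a minimum of 10 counts in each library, a fit of just the groups in question, a replicate block, the mitochondrial share as a covariate, mitochondrial genes removed, an adjusted p-value under 0.05, the longest transcript as length, and each of the 12 libraries left out. Leaving out the 4 libraries with a mitochondrial share under 10% was added after seeing the data, as was the members' share of the counts of nuclear genes alone. Uros and Lrp2 were named after their values were seen, as were the members outside the rule that are given by a single level or range.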

Additional observations from a re-analysis of the deposited data

Results flagged for a closer look

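Within each group of 4 mice, the highest or lowest mouse was compared with the others by Dixon's ratio at its 95% critical value, and 8 of 105 groups had a mouse far from the rest, where chance gives about 1 in 20. Cyp2b10 was at 2.83 CPM in control replicate 4, against 0.554 to 0.906 CPM in the other control mice. Cyp2j6 was at 43.9 CPM in replicate 2 of the group treated with 10 mg, against 36.5 to 36.9 CPM. Cyp3a11 was at 2.03 CPM in replicate 1 of the same group, against 0.0660 to 0.181 CPM, from 46 counts. Cyp2t4 was at 1.38 CPM in replicate 2 of the group treated with 20 mg, against 0.660 to 0.761 CPM, and Cyp2f2 was at 4.56 CPM in its replicate 3, below 5.25 to 5.39 CPM. Cyp4v3 was at 7.31 CPM in control replicate 1, against 4.58 to 5.0 CPM. Cyp4f16 was at 7.39 CPM in control replicate 2, against 5.54 to 5.79 CPM, and at 8.28 CPM in replicate 3 of the group treated with 20 mg, against 5.80 to 6.05 CPM. Both of these last libraries are among the 4 with a low mitochondrial share.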

How the results depend on the processing

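Whether a member was called depended on the tool and the filter. At 20 mg, DESeq2 called 1 of 33 members (Cyp2j9) and 182 of all 17163 genes. The fit with the mitochondrial covariate called 3 of 33 members (Cyp2j9, Cyp2j8 and Cyp2b10) and 1386 of 17163 genes. The fit with no filter on low counts called 1 of 35 members (Cyp2b10) and 416 of 40012 genes. The unfiltered fit also called 3 members at 10 mg (Cyp26b1, Cyp2b10 and Cyp4a12b), 2 between the doses (Cyp26b1 and Cyp4a12b) and 2 for both doses (Cyp26b1 and Cyp2b10). Of all 40012 genes it called 331, 256 and 393 in these comparisons. The other alternatives, each library left out included, called 0 members. No called value changed sign.

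Over all genes, the counts of 5 at 10 mg, 52 at 20 mg, 0 between the doses and 24 for both doses became 40, 182, 12 and 136 with DESeq2, 331, 416, 256 and 393 with no filter, and 15, 1386, 62 and 276 with the mitochondrial covariate. Without the 4 libraries of low share they were 26, 107, 0 and 67, and at an adjusted p-value under 0.05 they were 3, 23, 0 and 13. With 1 library left out they ranged from 2 to 8, 14 to 54, 0 to 0 and 8 to 35. The causes were not tested.

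Replicate numbers are shared by the groups, and the titles do not say whether they pair the samples. Same-numbered libraries deviated together by correlations of -0.33 to 0.32, and differently numbered libraries by -0.43 to 0.45. These correlations showed no closer link within a number, but they cannot exclude a pairing or a shared block. With a replicate block, 27 genes were called at 20 mg in place of 52, and 0 members.

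Cyp2c69 and Cyp2t4, with few counts, had 95% intervals at 20 mg of -0.32 to 0.96 and -0.55 to 1.05 on the log2 scale, so these libraries fix neither the size nor the sign of those differences. Intervals were also wide for members with many counts, such as Cyp4a31 (SE 0.32), and the part of depth in their width was not tested.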
